A study of Mus musculus with 8 samples.

Results

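Disease-associated microglia are an activated state that microglia, the resident macrophages of the brain, take up around amyloid plaques, damaged myelin and dying cells. The 10 genes described here are commonly used to mark that state: Itgax, Clec7a, Cst7, Spp1, Lpl, Axl, Apoe, Trem2, Tyrobp and Cd9. They were picked by name from the 22430 genes of the count table, with the comparison of 24 months (24m) against 6 months (6m) of age in view. Their own differences between the ages are therefore given as a description, with no p-value. Where such a gene is said to be called, it met the thresholds of the fit across all genes, which lends its choice no support. All 10 passed the filter on low counts, which kept 16730 genes.

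The libraries came from brain hemispheres of male C57Bl/6JRj mice, 4 young adults of 6m and 4 aged animals of 24m, each library from its own animal. The labels name no engineered allele and no treatment, and age is the only factor they give between the groups. The tissue was homogenized whole, and a transcript from microglia was therefore measured in a mixture with those of neurons, astrocytes, oligodendrocytes and vessels. In such bulk tissue, fewer cells of a type and less RNA per cell cannot be told apart.

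In the activated state, the receptor Trem2 binds lipids and lipoproteins on the microglial surface and signals through the adaptor Tyrobp (DAP12) and the kinase Syk. Microglia that lack Trem2 are known to stop short of the full programme, in which phagocytic, lysosomal and lipid-handling genes are raised while homeostatic genes such as P2ry12 and Cx3cr1 are lowered. Itgax, Clec7a and Cst7 are nearly silent in resting microglia, whereas Trem2 and Tyrobp are expressed in them too. Several of the genes are also made by other cells, among them Apoe by astrocytes, Cd9 by oligodendrocytes and Lpl and Spp1 by some neurons.

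Total counts per library ranged from 63460940 to 103462414, the deepest being 24m replicate 1. That library stood apart from the other aged libraries, with a mean Spearman rho of 0.979 to them and 0.978 to the young libraries over the tested genes, against 0.986 to 0.992 to their own age for 24m replicates 2 to 4. It also carried immunoglobulin transcripts, with 361 CPM (counts per 1000000, TMM-scaled) of the kappa constant gene Igkc against 0.539 to 9.40 CPM in the other aged libraries. Counts of called genes in a list are given also without 24m replicate 1 and with the trend of fold change over gene length removed, where they differ. A gene was called where the edgeR quasi-likelihood fit gave an adjusted p no larger than 0.05 together with a log2 difference of 0.58 or more in either direction. By that rule 43.6% of all tested genes were called, 25.3% being higher in the aged brains and 18.3% lower.

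The 10 genes did not move as a block. Of them 5 were called higher at 24m (Itgax, Cst7, Clec7a, Axl and Lpl) and 0 lower, beside 25.3% and 18.3% of all genes (43.6% in either direction), and the other 5 (Spp1, Trem2, Tyrobp, Cd9 and Apoe) were not called. These counts were 5 and 1 (Apoe) without 24m replicate 1, and with the length trend removed 3 and 0, the calls of Axl and Lpl being lost. All 4 aged libraries lay above all 4 young ones for 4 genes and below them for Apoe, where 28.4% and 26.8% of all tested genes showed such separation. The median log2 fold change of the 10 genes was 0.39 and that of all genes -0.0034. Differences in mean CPM ranged from 13.4-fold higher for Itgax to a ratio of 0.687 for Apoe, and were largest for the 3 genes with the lowest levels at 6m.

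Itgax (ENSMUSG00000030789, chromosome 7, 127728668 to 127749829, GRCm39) encodes CD11c, an integrin alpha chain found on dendritic cells and activated microglia. It was at 0.366, 0.396, 0.299 and 0.257 CPM in 6m replicates 1 to 4 and at 5.18, 4.64, 5.19 and 2.69 CPM in 24m replicates 1 to 4. Every aged library held more than every young library, and 24m replicate 4 was the lowest of the aged. The means were 0.329 ± 0.063 and 4.43 ± 1.18 CPM (SD, n = 4), and the log2 fold change was 3.74 ± 0.26 (SE). Without 24m replicate 1 it was 3.67 ± 0.26.

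Cst7 (ENSMUSG00000068129, chromosome 2, 150412284 to 150420864) encodes cystatin F, an inhibitor of lysosomal cysteine proteases. Its levels were 0.259, 0.368, 0.282 and 0.363 CPM in 6m replicates 1 to 4 and 3.67, 2.16, 2.47 and 1.605 CPM in 24m replicates 1 to 4. The ages were again fully separated, with 24m replicate 1 the highest. From 0.318 ± 0.056 CPM at 6m the mean was 2.48 ± 0.872 CPM at 24m (SD, n = 4), and the log2 fold change 2.95 ± 0.28 (SE), or 2.72 ± 0.22 without 24m replicate 1.

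Clec7a (ENSMUSG00000079293, chromosome 6, 129438554 to 129449742) encodes dectin-1, a receptor for fungal beta-glucans that signals through Syk. It had the smallest counts of the 10 genes, with 13, 5, 7 and 2 reads in 6m replicates 1 to 4 and 81, 61, 65 and 57 reads in 24m replicates 1 to 4. These corresponded to 0.198, 0.0707, 0.116 and 0.0303 CPM and to 0.782, 0.761, 0.780 and 0.653 CPM. The aged libraries were close to each other, while the young ones varied with a coefficient of variation of 69.4% at counts this low. The log2 fold change was 2.83 ± 0.38 (SE), and 2.53 to 3.35 over the alternatives tried.

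**Figure D1:**
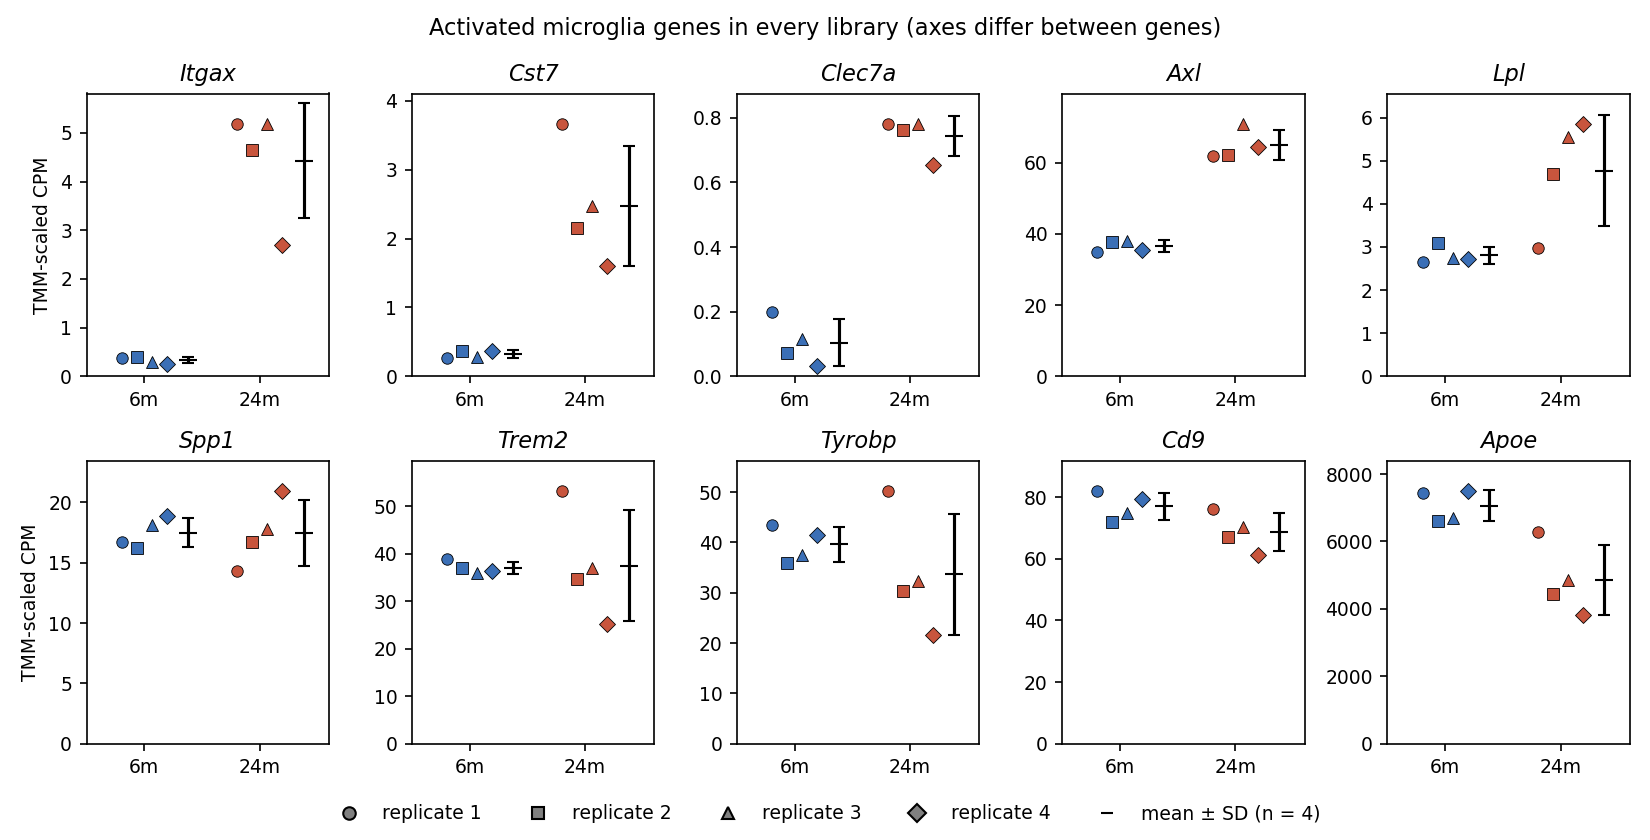
Levels of the 10 genes in each library, as TMM-scaled CPM on linear axes from 0, with a separate scale for each gene; points are libraries and bars the mean and SD of 4. Itgax, Cst7, Clec7a and Axl show no overlap between ages, and Apoe is lower in every aged library, from 3832 to 6273 CPM against 6614 to 7489 CPM.

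Because Itgax, Cst7 and Clec7a differed most between the ages, their upstream sequences are shown, together with those of Axl, which differed less, and Trem2, which had about the same mean at both ages. The RefSeq promoter table (build GRCm38.p6, whose coordinates are not those of GRCm39 used for the genes) held 12 start sites of 8 of the genes, and none of Lpl and Tyrobp. The 250 bases before 1 start site per gene are chr7:128129300-128129549 (plus strand) for Itgax, chr2:150570165-150570414 (plus) for Cst7, chr6:129472780-129473029 (minus) for Clec7a, chr7:25788734-25788983 (minus) for Axl and chr17:48346151-48346400 (plus) for Trem2. Each is written 5′ to 3′ on the strand of its gene. Capitals mark GAGGAA or its complement TTCCTC, a core recognised by the myeloid factor PU.1 (Spi1), and TGANTCA, the AP-1 motif.
Itgax: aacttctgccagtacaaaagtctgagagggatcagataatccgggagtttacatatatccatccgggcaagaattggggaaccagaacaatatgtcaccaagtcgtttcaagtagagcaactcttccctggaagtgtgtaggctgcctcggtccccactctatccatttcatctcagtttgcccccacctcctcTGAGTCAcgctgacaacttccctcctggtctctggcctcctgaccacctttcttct
Cst7: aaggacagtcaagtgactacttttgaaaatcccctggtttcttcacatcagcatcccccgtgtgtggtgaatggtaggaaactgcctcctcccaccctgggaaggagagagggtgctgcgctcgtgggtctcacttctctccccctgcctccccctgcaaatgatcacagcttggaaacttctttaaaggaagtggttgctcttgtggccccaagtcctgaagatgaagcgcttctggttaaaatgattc
Clec7a: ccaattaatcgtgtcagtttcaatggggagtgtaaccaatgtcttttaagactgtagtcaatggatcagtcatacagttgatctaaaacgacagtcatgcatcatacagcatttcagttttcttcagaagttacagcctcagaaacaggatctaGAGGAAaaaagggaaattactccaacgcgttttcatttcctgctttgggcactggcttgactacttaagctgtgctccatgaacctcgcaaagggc
Axl: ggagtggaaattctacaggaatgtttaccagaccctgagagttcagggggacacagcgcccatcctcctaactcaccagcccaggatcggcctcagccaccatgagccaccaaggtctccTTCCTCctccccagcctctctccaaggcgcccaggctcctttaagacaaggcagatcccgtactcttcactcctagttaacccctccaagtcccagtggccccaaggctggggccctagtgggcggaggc
Trem2: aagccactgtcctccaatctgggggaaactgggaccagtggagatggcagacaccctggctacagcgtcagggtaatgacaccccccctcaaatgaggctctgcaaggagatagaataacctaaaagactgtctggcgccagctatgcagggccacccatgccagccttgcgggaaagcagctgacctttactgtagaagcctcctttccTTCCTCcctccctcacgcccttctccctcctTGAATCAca

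The GAGGAA core was found on either strand in the windows of Clec7a, Axl and Trem2 above. Over all start sites it was in 7 of 12 windows, from 5 of 8 genes (also Spp1 and Apoe), where 23.3% of 32851 mouse windows of the same length hold it. The 2 windows of Clec7a overlap and share a single match. TGANTCA was found upstream of Itgax and Trem2, in 2 of 12 windows against 6.75% of all windows. The E-box CACGTG, bound by factors such as MITF and TFEB, was in 0 of 12 windows against 6.02% of all, and its relative CATGTG in 1 window, that of Cd9, against 12.3%. None of these matches overlapped another within a window. A match describes the letters only, and the windows with the core belonged to genes whose levels were higher, alike or lower at 24m.

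Axl (ENSMUSG00000002602, chromosome 7, 25456535 to 25488329) encodes a receptor tyrosine kinase of the TAM family, by which phagocytes take up apoptotic cells. Its levels were 34.8, 37.9, 38.02 and 35.6 CPM in 6m replicates 1 to 4 and 62.0, 62.2, 71.0 and 64.5 CPM in 24m replicates 1 to 4. The ages were widely separated and the libraries even, with coefficients of variation of 4.38% at 6m and 6.45% at 24m. Its log2 fold change was 0.83 ± 0.08 (SE), and 0.52 ± 0.08 with the trend over gene length removed, which was under the fold threshold.

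Lpl (ENSMUSG00000015568, chromosome 8, 69284603 to 69360100) encodes lipoprotein lipase, which frees fatty acids from lipoproteins. It was at 2.65, 3.10, 2.74 and 2.72 CPM in 6m replicates 1 to 4 and at 2.98, 4.69, 5.55 and 5.86 CPM in 24m replicates 1 to 4. Here 24m replicate 1 lay among the young libraries, and the other aged libraries lay above all of them. Between the ages the log2 fold change was 0.77 ± 0.20 (SE), 0.96 ± 0.13 without that library and 0.30 ± 0.14 with the length trend removed. With quantile-normalized counts and DESeq2 it was 0.41, and in both of these last analyses Lpl was under the fold threshold. A predicted gene on the other strand, Gm64236, overlaps Lpl.

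Trem2 (ENSMUSG00000023992, chromosome 17, 48653429 to 48661175) was at 38.9, 36.9, 35.9 and 36.2 CPM in 6m replicates 1 to 4 and at 53.1, 34.6, 37.0 and 25.1 CPM in 24m replicates 1 to 4. The aged libraries lay on both sides of the young ones. The means were 37.0 ± 1.33 and 37.5 ± 11.6 CPM (SD, n = 4), so that the spread at 24m was far wider than the difference. On the log2 scale the fold change was 0.02 ± 0.19 (SE), and -0.18 ± 0.12 without 24m replicate 1, a change of sign. The predicted gene Gm65654 overlaps Trem2 on the other strand.

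Tyrobp (ENSMUSG00000030579, chromosome 7, 30113170 to 30117010), the signalling adaptor of Trem2, followed it across the aged libraries. It was at 43.5, 36.0, 37.6 and 41.5 CPM in 6m replicates 1 to 4 and at 50.2, 30.4, 32.4 and 21.5 CPM in 24m replicates 1 to 4. Only 24m replicate 1 was above the young range, and the other 3 aged libraries were below it. The log2 fold change was -0.24 ± 0.22 (SE) with all libraries and -0.48 ± 0.13 without 24m replicate 1. It was 0.52 ± 0.11 with the length trend removed, so its sign depended on that choice; Tyrobp is the shortest of the 10 genes, with 682 exonic bases. The ratio of Tyrobp to Trem2 CPM was 0.976 to 1.15 in the young libraries and 0.857 to 0.945 in the aged.

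Apoe (ENSMUSG00000002985, chromosome 7, 19430034 to 19434947) encodes apolipoprotein E, the main lipid carrier of the brain, made largely by astrocytes and raised in activated microglia. Its levels were 7429, 6614, 6711 and 7489 CPM in 6m replicates 1 to 4 and 6273, 4437, 4853 and 3832 CPM in 24m replicates 1 to 4. All aged libraries were below all young ones. The log2 fold change was -0.54 ± 0.15 (SE), -0.67 ± 0.10 without 24m replicate 1, which was past the fold threshold, and -0.06 with quantile-normalized counts and DESeq2. Apoe made up 94.9 to 97.2% of the summed CPM of the 10 genes. A predicted gene on the other strand, Gm71725, overlaps Apoe. Of 10 astrocyte markers, 7 were called higher and 0 lower at 24m (median log2 fold change 1.30). Their summed level was 2735 to 3562 CPM at 6m and 2896 to 3756 CPM at 24m, most of it from Aldoc, which was not called (-0.29). The part of astrocytes in the level of Apoe was not tested.

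Cd9 (ENSMUSG00000030342, chromosome 6, 125437210 to 125471778) encodes a tetraspanin of microglia, oligodendrocytes and other cells. It was at 81.9, 71.9, 74.8 and 79.3 CPM in 6m replicates 1 to 4 and at 76.1, 67.0, 70.3 and 61.2 CPM in 24m replicates 1 to 4. The ages overlapped. Its log2 fold change was -0.17 ± 0.09 (SE), and 0.42 ± 0.07 with the length trend removed, a change of sign. Oligodendrocyte markers summed to 3472 to 4336 CPM at 6m and 3742 to 4344 CPM at 24m, with 2 of 10 genes called higher and 0 lower (2 and 1 without 24m replicate 1, 3 and 0 with the length trend removed), and their part in the level of Cd9 was not tested. Cd9 overlaps 4 predicted genes, 1 of them on its own strand.

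Spp1 (ENSMUSG00000029304, chromosome 5, 104582165 to 104589235) encodes osteopontin, a secreted phosphoprotein that binds integrins and CD44. It was at 16.7, 16.3, 18.1 and 18.9 CPM in 6m replicates 1 to 4 and at 14.3, 16.7, 17.8 and 20.9 CPM in 24m replicates 1 to 4. The young range lay inside the aged range. The log2 fold change was -0.01 ± 0.12 (SE), with a sign that depended on the processing, from -0.21 to 0.43 over the alternatives. Markers of meningeal fibroblasts, which can also hold Spp1, summed to 55.8 to 69.3 CPM at 6m and 65.8 to 71.8 CPM at 24m. Of these 8 markers, 1 was called higher and 0 lower, or 1 and 1 with the length trend removed (median log2 fold change 0.04 with all libraries). The marker called higher was Igf2, with means of 4.97 CPM at 6m and 11.9 CPM at 24m. The predicted gene Gm42793 overlaps Spp1 on the same strand.

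**Figure D2:**
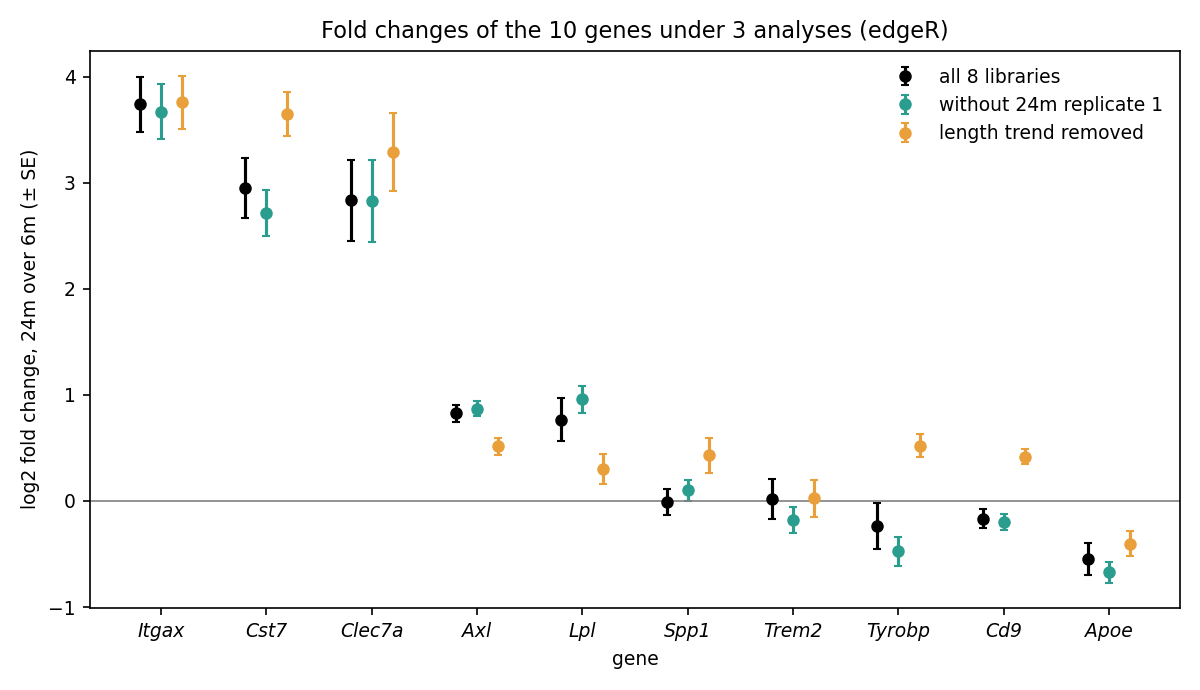
Log2 fold changes of 24m over 6m for the 10 genes with their SE, by edgeR with all 8 libraries, without 24m replicate 1 and with the trend over gene length removed. Itgax, Cst7 and Clec7a stay between 2.72 and 3.76 in these 3 fits, while Tyrobp and Cd9 lie below 0 in the first pair of fits and above 0 in the last.

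The aged libraries differed among themselves in a way that several of the genes shared. The order of 24m replicates 1, 3, 2 and 4 from highest to lowest was found in 6 of the 10 genes (Clec7a, Cst7, Apoe, Trem2, Tyrobp and Cd9), an order held by 14.4% of all tested genes. Lpl and Spp1 had replicate 4 highest, then 3, 2 and 1, as did 17.6% of all genes. Itgax was at 5.19 and 5.18 CPM in replicates 3 and 1, and lowest in replicate 4. Axl was highest in replicate 3 and lowest in replicate 1. Replicate 4 was the lowest aged library in 7 of the 10 genes and in 37.4% of all genes.

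**Figure D3:**
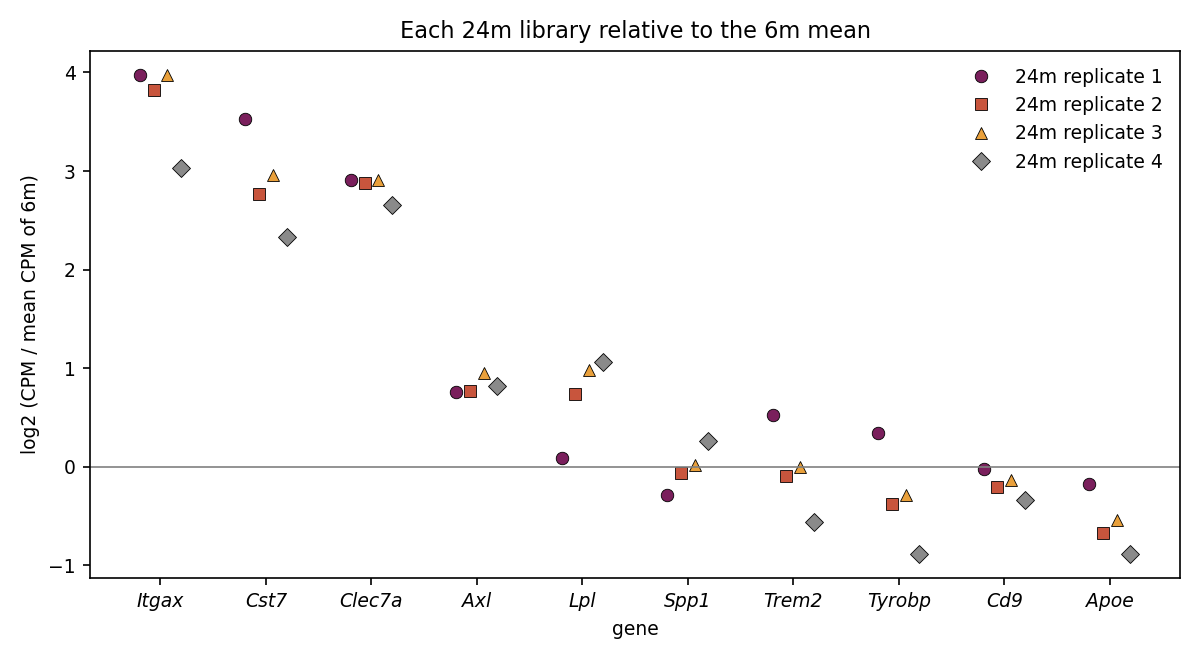
Each 24m library relative to the 6m mean, as the log2 ratio of CPM, for the 10 genes. For Trem2 the aged libraries run from -0.56 (replicate 4) to 0.52 (replicate 1), around the young mean, while for Itgax they run from 3.03 to 3.98.

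Deviations of log2 CPM from the mean of each age were compared between the genes. Over the 8 libraries, Pearson r was 0.987 for Apoe and Tyrobp, 0.979 for Trem2 and Tyrobp, 0.942 for Apoe and Cd9, and 0.935 for Tyrobp and Cd9. It was -0.907 for Spp1 and Trem2 and -0.901 for Lpl and Tyrobp. The median over all 45 pairs was 0.14, and 0.22 over 7 libraries without 24m replicate 1. Trem2 and Tyrobp, receptor and adaptor, were at 0.934 without that library, and Lpl and Tyrobp at -0.632. These pairs share their libraries and the scaling, so r describes these libraries only.

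Levels were ordered per exonic length within each age, as counts per kilobase scaled to a common library total (TPM). At 6m Apoe led with 4918 ± 135 TPM (SD, n = 4), followed by Tyrobp at 164 ± 8.10, Cd9 at 102 ± 2.28, Trem2 at 21.1 ± 0.780, Spp1 at 17.4 ± 1.18 and Axl at 11.3 ± 0.924 TPM. Lpl and Cst7 were alike at 0.649 ± 0.068 and 0.648 ± 0.122 TPM, and Itgax (0.192 ± 0.040 TPM) and Clec7a (0.111 ± 0.074 TPM) overlapped. At 24m the leading genes kept their places, with 4790 ± 480 TPM for Apoe, 195 ± 45.9 for Tyrobp and 130 ± 6.12 for Cd9. Trem2 at 30.0 ± 5.84, Axl at 28.8 ± 4.18 and Spp1 at 25.3 ± 6.51 TPM were not apart beyond their spread. Cst7 was at 7.06 ± 1.65, Itgax at 3.65 ± 0.831, Lpl at 1.62 ± 0.572 and Clec7a at 1.14 ± 0.0942 TPM, the last pair overlapping. TPM rescales every library over gene length and is not compared between ages here. With the canonical transcript as length, 6 of the 10 genes kept their rank at 6m and 8 at 24m, and Trem2 stood at 55.5 TPM at 6m.

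Beyond the 10 genes, 39 other genes of the activated programme were tested, among them cathepsins, chemokines and lysosomal proteins. Of these, 14 were called higher and 4 lower at 24m (median log2 fold change 0.37), or 15 and 5 without 24m replicate 1. With the length trend removed, 22 were called higher and 5 lower, and the median was 0.67. The largest difference was in Cybb, the catalytic subunit of the phagocyte NADPH oxidase. It rose from 0.0457 ± 0.0513 to 0.544 ± 0.183 CPM (SD, n = 4, log2 fold change 3.53 ± 0.54 SE, edgeR adjusted p = 0.000512). Cybb had 12 reads over the young libraries and 195 over the aged. It passed the filter on low counts only through the aged libraries, which limits what its p can show. Lilrb4a, an inhibitory receptor, rose by 2.05 ± 0.33 (edgeR adjusted p = 0.00069), and lysozyme Lyz2 from 8.72 ± 0.934 to 24.8 ± 9.17 CPM (1.51 ± 0.23, adjusted p = 0.000464). The ages did not overlap for these 3 genes. Those that fell most were the iron storage gene Fth1, at 9462 ± 1488 and 4829 ± 1339 CPM (-0.97 ± 0.20, edgeR adjusted p = 0.00218), the fatty acid binding protein Fabp5 (-0.86 ± 0.16, 0.00144) and the protease inhibitor Cstb (-0.77 ± 0.18, 0.00478). Fth1, Fabp5 and Cstb are also made by cells other than microglia. The log2 fold change of Cstb was -0.02 with the length trend removed.

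Signalling around Trem2 and Tyrobp was represented by 17 tested partners, of which 7 were called higher and 0 lower (median 0.32, and 0.56 with the length trend removed). Without 24m replicate 1 they were 6 and 1 of 16, since Cd300lb was then no longer tested. Syk, the kinase recruited by Tyrobp, rose from 1.32 ± 0.0875 to 2.73 ± 0.541 CPM (SD, n = 4; log2 fold change 1.04 ± 0.17 SE, edgeR adjusted p = 0.000681), and the kinase subunit Pik3cg by 1.79 ± 0.19 (7.6e-05). Adam10, a protease that sheds Trem2 from the cell surface and is widely expressed in neurons, rose from 5.36 ± 1.70 to 18.6 ± 6.67 CPM (1.79 ± 0.32, edgeR adjusted p = 0.00109). Cd300lb, another receptor that pairs with Tyrobp, had 2 reads over the young libraries and 43 over the aged. The alternative adaptor Hcst (DAP10) was at 0.969 ± 0.243 and 0.613 ± 0.372 CPM, which did not pass (edgeR adjusted p = 0.149). At 24m Hcst was at 1.17 CPM in replicate 1 and 0.39 to 0.474 CPM in the others, and without that library it was called lower (-1.16, edgeR adjusted p = 0.00122; 0.00122 to 0.793 over its alternatives). The log2 fold change of Hcst was also called lower with the replicate block (-0.76) and with quantile-normalized counts and DESeq2 (-0.84).

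Clec7a signals through Syk, Card9, Bcl10 and Malt1. Of 6 genes of that route, 2 were called higher (Syk and Malt1) and 1 lower, or 1 and 0 with the length trend removed. The adaptor Card9 fell from 8.19 ± 0.853 to 5.13 ± 1.16 CPM (SD, n = 4; log2 fold change -0.67 ± 0.17 SE, edgeR adjusted p = 0.00606), and with the length trend removed its change of -0.35 was under the fold threshold. Malt1, a protease of the same complex, rose from 0.572 ± 0.208 to 1.03 ± 0.233 CPM (0.84 ± 0.29, edgeR adjusted p = 0.0263), a call that was lost with the length trend removed (0.35).

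Itgax pairs with the beta-2 chain Itgb2, which rose from 8.73 ± 0.773 to 15.7 ± 3.29 CPM (SD, n = 4; log2 fold change 0.85 ± 0.15 SE, edgeR adjusted p = 0.00115). In all, 3 of 6 genes of this group were called higher and 0 lower. Itgam (CD11b), a marker of all microglia, rose by 1.44 ± 0.17 (edgeR adjusted p = 0.000129) and Itgal by 1.48 ± 0.28 (0.00147). Itgad, another alpha chain, was at 1.17 ± 0.335 and 1.09 ± 0.201 CPM and did not pass (edgeR adjusted p = 0.734).

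In the TAM family of Axl and its ligands, 3 of 6 genes were called higher and 0 lower, or 3 and 1 without 24m replicate 1 and also with the length trend removed. The receptor Mertk rose from 8.53 ± 2.36 to 17.6 ± 5.21 CPM (SD, n = 4; log2 fold change 1.05 ± 0.26 SE, edgeR adjusted p = 0.00618), with libraries of the ages overlapping. Tyro3, the family member of neurons, met the adjusted p while its fold change was too small (0.33 ± 0.09, edgeR adjusted p = 0.0073). Of the ligands of the family, Pros1 rose by 1.10 ± 0.19 (edgeR adjusted p = 0.000923), while Gas6 stayed under the fold threshold at -0.34 ± 0.10 (0.016).

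Of 9 receptors of osteopontin, 6 were called higher and 0 lower (median log2 fold change 1.49), or 5 and 0 with the length trend removed (median 0.95). Cd44 rose from 0.421 ± 0.0572 to 1.67 ± 0.276 CPM (SD, n = 4; 1.99 ± 0.19 SE, edgeR adjusted p = 5.6e-05) and the integrin chain Itgav from 2.34 ± 0.555 to 16.9 ± 8.88 CPM (2.85 ± 0.40, edgeR adjusted p = 0.000331). Itgb5 was at 156 ± 22.0 and 151 ± 23.7 CPM and did not pass (edgeR adjusted p = 0.774). Several of these chains are expressed by neurons and vessels.

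Around Apoe, 13 partners were tested, of which 7 were called higher and 1 lower (median 1.09), or 6 and 4 without 24m replicate 1. With the length trend removed they were 7 and 0, and the median was 0.61. Abca1, the pump that loads lipid onto apolipoprotein E, rose from 1.65 ± 0.469 to 9.23 ± 4.85 CPM (SD, n = 4; log2 fold change 2.48 ± 0.40 SE, edgeR adjusted p = 0.000648). The sorting receptor Sorl1 rose by 1.65 ± 0.22 (edgeR adjusted p = 0.00027). Lrp1, a receptor for apolipoprotein E, met the adjusted p while its fold change was too small (0.39 ± 0.10, edgeR adjusted p = 0.00575). Its sign turned with the length trend removed (-0.15). Lrp1 was called higher with library totals alone (0.62) and with quantile-normalized counts and DESeq2 (0.76). Apoc1, another apolipoprotein, fell from 5.02 ± 0.509 to 2.39 ± 0.798 CPM (-1.06 ± 0.22, edgeR adjusted p = 0.00241), and by less than the fold threshold with the length trend removed (-0.52).

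For lipoprotein lipase, 3 of 10 tested partners were called higher and 3 lower, or 2 and 3 with the length trend removed. Sel1l, needed for its exit from the endoplasmic reticulum, rose from 13.1 ± 1.86 to 59.3 ± 19.3 CPM (SD, n = 4; log2 fold change 2.18 ± 0.22 SE, edgeR adjusted p = 7.39e-05), and the lysosomal lipase Lipa by 0.94 ± 0.13 (0.000331). Its maturation factor Lmf1 fell from 36.7 ± 2.61 to 24.4 ± 2.77 CPM (-0.59 ± 0.10, edgeR adjusted p = 0.00105), at the edge of the fold threshold, which it missed without 6m replicate 4 (-0.54) or 24m replicate 4 (-0.51). Gpihbp1, which anchors the enzyme on capillaries, had 6 reads over the 4 libraries of each age and was not tested.

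Of 9 cystatin and protease genes related to Cst7, 1 was called higher, the cathepsin Ctsc (0.65 ± 0.14 SE, edgeR adjusted p = 0.00252), and 3 lower, the cystatins Cst6, Cstb and Cst3. With the length trend removed 0 were called higher, Ctsc being at 0.54, and 1 lower. Cst3 fell from 3919 ± 232 to 2382 ± 633 CPM (SD, n = 4; -0.72 ± 0.17, edgeR adjusted p = 0.0044) and Cst6 from 27.4 ± 3.00 to 13.2 ± 4.28 CPM (-1.05 ± 0.21, edgeR adjusted p = 0.00174). Cst3 is made by several brain cell types, and with the length trend removed its log2 fold change was -0.09. Ctss, a cathepsin of microglia, passed the adjusted p with a log2 fold change of 0.578 ± 0.0777, just under the threshold (edgeR adjusted p = 0.000258). Among 10 tetraspanins and partners of Cd9, 1 was called higher (Ptgfrn, 1.19 ± 0.18) and 1 lower (Cd63, -0.66 ± 0.17), with edgeR adjusted p of 0.000464 and 0.00775. Without 24m replicate 1 these counts were 2 and 1, as with the length trend removed. Cd63 was under the fold threshold without 24m replicate 4 (-0.56).

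**Figure D4:**
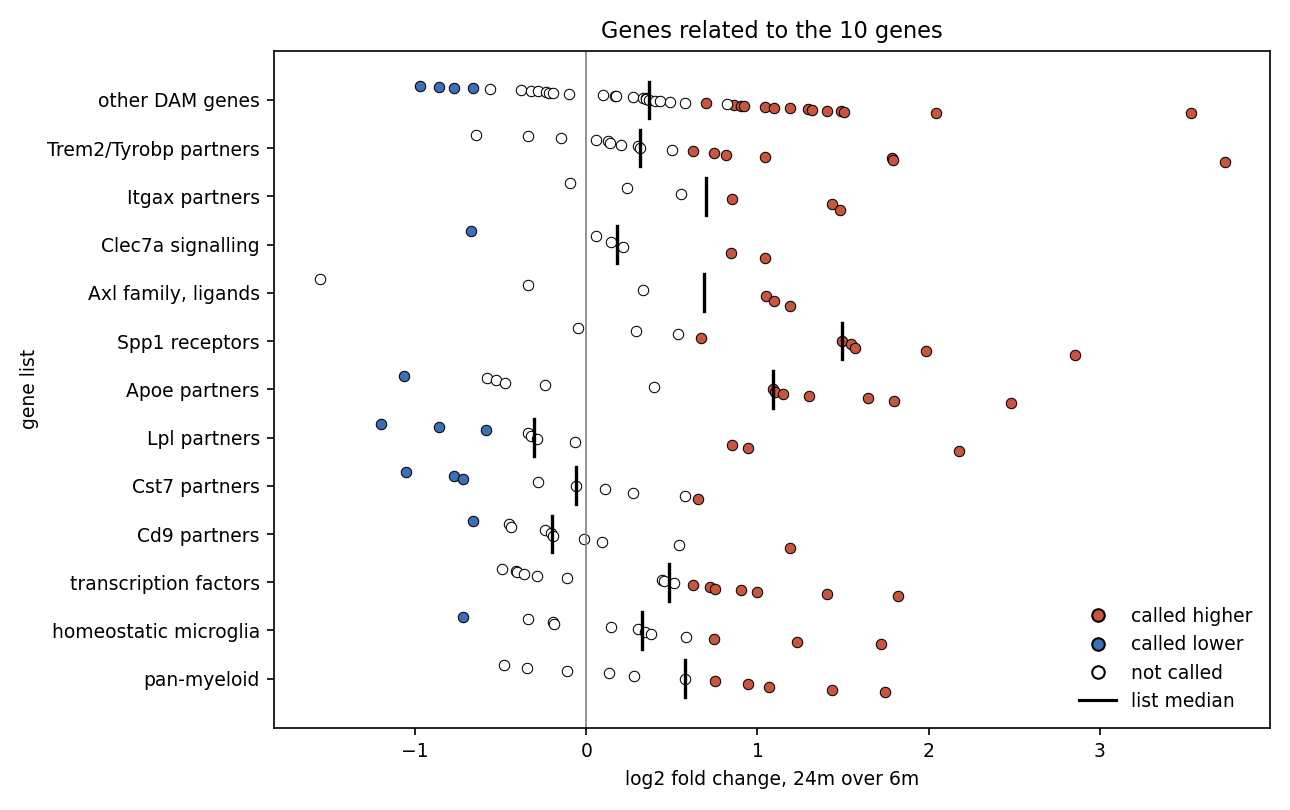
Log2 fold changes of 24m over 6m for the tested genes of 13 lists related to the 10 genes (a gene may be in several lists); coloured points were called higher or lower by edgeR and black bars are list medians. Medians run from -0.31 for partners of Lpl to 1.49 for receptors of Spp1.

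Of 12 homeostatic microglia genes tested, 3 were called higher and 1 lower (Cst3), or 4 and 1 without 24m replicate 1 and 5 and 0 with the length trend removed. Over all genes 25.3% were called higher and 18.3% lower. Their median log2 fold change was 0.32 for the 12 homeostatic genes, of which 66.7% had a value above 0. Next to Cst3 (-0.72), the smallest values were those of Siglech (-0.34 ± 0.15 SE) and Olfml3 (-0.19 ± 0.11), neither of them called. Cx3cr1, the fractalkine receptor, rose from 4.18 ± 0.855 to 13.8 ± 2.02 CPM (SD, n = 4; 1.72 ± 0.17 SE, edgeR adjusted p = 6.9e-05). P2ry12, a purinergic receptor, rose from 3.69 ± 1.18 to 6.19 ± 1.40 CPM (0.75 ± 0.27, edgeR adjusted p = 0.0321; 0.00265 to 0.137 over its alternatives). That call was lost on leaving out 6m replicate 1 (0.79) or 4 (0.54), or 24m replicate 2 (0.73), 3 (0.71) or 4 (0.64), and with quantile-normalized counts and DESeq2 (0.39). Csf1r (0.38 ± 0.08) and Tmem119 (0.34 ± 0.12) passed the adjusted p (0.00328 and 0.0317, edgeR) but not the fold threshold, which Tmem119 met with the length trend removed (0.64) and Csf1r with library totals alone (0.60). Of 11 pan-myeloid genes, 5 were called higher and 0 lower, or 4 and 1 without 24m replicate 1. Their summed levels were 147 to 156 CPM at 6m and 192 to 243 CPM at 24m, the top value being that of 24m replicate 1. The part of microglial number in the levels of Itgax, Cst7 and Clec7a was not tested.

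Set against the sum of homeostatic genes, the summed CPM of the 10 genes was 1.68 ± 0.0236 at 6m and 1.80 ± 0.122 at 24m (SD, n = 4). The libraries of the ages did not overlap, with 1.65 to 1.71 at 6m and 1.72 to 1.98 at 24m. Apoe and Cst3 hold most of those sums. With pan-myeloid genes as the denominator it was 47.9 ± 2.58 and 23.7 ± 2.40, and without Apoe and Cd9 it was 0.0311 ± 0.00113 and 0.0594 ± 0.00676, both without overlap and in opposite directions. Leaving out Apoe, Cd9 and Cst3, the ratio was 0.335 ± 0.00852 and 0.361 ± 0.0262, with overlapping libraries, a version chosen after the data had been seen.

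Of the transcription factors linked to activated microglia, 16 were tested, 7 called higher and 0 lower (median 0.48), or 6 and 0 without 24m replicate 1. With the length trend removed 5 were called higher and 2 lower, and the median was 0.28. Mitf rose from 0.426 ± 0.0314 to 1.51 ± 0.570 CPM (SD, n = 4; log2 fold change 1.82 ± 0.31 SE, edgeR adjusted p = 0.000792) and Hif1a by 1.41 ± 0.27 (0.0015). Spi1, which encodes PU.1, was at 10.9 ± 1.14 and 10.1 ± 2.73 CPM and did not pass (edgeR adjusted p = 0.61), its sign depending on the processing. Hif1a and Mitf are also expressed outside microglia.

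Other cells that could hold the 10 genes were measured by their markers. Of 9 border macrophage markers, 2 were called higher and 2 lower, with sums of 7.61 to 8.92 CPM at 6m and 5.53 to 8.34 CPM at 24m. Without 24m replicate 1 the counts were 1 and 3, and the median log2 fold change turned from 0.15 to -0.54. With the length trend removed they were 2 and 0. Dendritic cell markers, of interest for Itgax, summed to 29.6 to 32.7 CPM at 6m and 31.8 to 37.6 CPM at 24m. Of 7 tested dendritic genes, 1 was called higher and 1 lower, or 1 and 2 without 24m replicate 1 and 2 and 0 with the length trend removed. The gene called higher was Zbtb46, a transcription factor of dendritic cells and endothelium, by 1.09 on the log2 scale (edgeR adjusted p = 7e-05). The gene called lower was Clec10a (-0.82, edgeR adjusted p = 0.00755). Much of the dendritic sum came from Flt3 (means of 12.7 CPM at 6m and 14.2 CPM at 24m) and Siglech (10.8 and 8.55 CPM). Siglech is also counted among the homeostatic microglia genes. Xcr1 had 0 reads in 6m and 1 in 24m, and Clec9a 3 and 7 reads. The part of dendritic cells in the level of Itgax was not tested. Of 7 tested monocyte and neutrophil markers, 4 were called lower and 0 higher (sums of 5.09 to 12.4 CPM at 6m, 3.00 to 8.21 CPM at 24m), and the monocyte receptor Ccr2 had 4 and 15 reads. Without 24m replicate 1, 5 of the 6 still tested were lower, and with the length trend removed 1 was, the median moving from -1.21 to -0.68. B and plasma cell markers summed to 69.4 to 76.7 CPM at 6m and 45.9 to 1160 CPM at 24m, the highest value being that of 24m replicate 1. Most of the sum at 6m was Ighm (70.2 ± 3.34 CPM). Of 7 tested genes, 2 were called higher and 0 lower, or 5 and 0 with the length trend removed. Without 24m replicate 1 they were 1 and 2, and the median log2 fold change turned from 1.75 to -0.33. T and NK cell markers summed to 5.58 to 6.64 CPM at 6m and 7.11 to 9.34 CPM at 24m, with 3 of 5 tested genes called higher and 1 lower. Without 24m replicate 1, the highest in summed level, 4 of them were still tested, Cd8b1 no longer, and of these 2 were called higher and 1 lower (median log2 fold change 0.68 against 1.29 over 5). With the length trend removed 4 were called higher and 0 lower. The part of these cells in the levels of the 10 genes was not tested.

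The genes outside the 10 whose pattern was most like them were found by Pearson r with the mean standardized log2 CPM of the 10 genes, over 8 libraries and among 13924 genes of at least 1 CPM. They were Myo1f (r = 0.978), Sppl2b (0.975), Myo1c (0.973), Slc15a3 (0.967), Fndc10 (0.967), Slc38a3 (0.966), Tlr12 (0.963), Zfp213 (0.961), Irf8 (0.958) and C3 (0.957). Their log2 fold changes ran from 0.22 for Zfp213 to 1.69 for C3. The mean standardized profile of the 10 genes was -0.39 to -0.12 in the young libraries and 0.58, 0.12, 0.43 and -0.13 in 24m replicates 1 to 4. In that mean 24m replicate 4 lay within the young range. The mean is taken over genes that moved in opposite directions. In 24m replicate 4, Itgax was at 3.03 and Apoe at -0.88 on the log2 scale relative to the 6m mean. With 8 libraries in 2 ages, such values are a description.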

How the data were processed

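RNA of brain hemispheres from 8 male mice was sequenced after poly(A) selection with a directional kit. The authors trimmed reads with Trim Galore 0.4.11 and aligned them to GRCm39 with HISAT2 2.1.0 (per the submitters' processing notes), then counted them per Ensembl gene (featureCounts). Raw counts per gene and library were deposited. The strand setting and the handling of multimapping reads are not given in the sources used here.

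Of 22430 genes listed, 22281 matched GENCODE vM39 on GRCm39; the others held 0.312% of counts. Genes were kept where 4 of 8 libraries or more exceeded 5 counts, which left 16730. They were fitted by quasi-likelihood in edgeR 4.0.16 (R 4.3.3) with TMM scaling and a single term for age, after the steps had been tested on simulated data. Calls needed a p, adjusted by Benjamini-Hochberg, no larger than 0.05 and a log2 difference of 0.58 or more. CPM used TMM-scaled library sizes. Each SE was the log2 fold change divided by √F. Alternatives were DESeq2 1.42.0, limma-voom (limma 3.58.1), other scalings and filters, thinning, length and GC offsets, the replicate number as a block, and each library left out in turn.

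The members and gene lists were chosen with earlier results of these data known. Genes named beside the members were direct partners, or among the 3 largest and the 3 smallest fold changes of a list, or defining markers of other cells. Some genes of these lists are not reported by name here.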

Additional observations from a re-analysis of the deposited data

Results flagged for a closer look

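In 7 of 118 groups of 4 libraries examined, the highest or lowest library was separated from the others by more of the range than Dixon's 95% critical value allows, and chance gives about 1 in 20. Of the 10 activated microglia genes this held for Clec7a alone, at 0.653 CPM in 24m replicate 4 against 0.761 to 0.782 CPM in the other aged libraries. Hcst was at 1.17 CPM in 24m replicate 1 against 0.39 to 0.474 CPM, and Apoc2, a neighbour of Apoe, at 0.386 CPM in the same library against 0.0802 to 0.132 CPM. Among the young libraries, Tmem119 was at 18.2 CPM in 6m replicate 1 against 19.5 to 19.7 CPM, and Cybb at 0.122 CPM in that library against 0.0141 to 0.0303 CPM. Itgal was at 0.484 CPM in 6m replicate 4 against 0.63 to 0.655 CPM, and Cd36 at 0.311 CPM in 6m replicate 2 against 0.198 to 0.212 CPM.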

How the results depend on the processing

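With any library left out, 5 of the 10 genes were called higher (and Apoe lower without 24m replicate 1), 3825 to 4673 of all genes higher and 2615 to 3592 lower; related genes were called lower in 17 to 35 cases (20 with all libraries; 35 without 24m replicate 1, 12 with library totals alone, 32 with quantile-normalized counts and DESeq2). Removing the length trend, alone or with GC, left 3 of the 10 genes called (Itgax, Cst7 and Clec7a; of all genes 3827 were higher and 2506 lower with the length trend removed), and quantile normalization 4 (not Lpl; 3573 and 3891 of all genes); the cause was not tested. A minimum of 1 CPM also left 4, since Clec7a then had no test. With library totals alone 1746 genes were called lower, the median gene moved from -0.0034 to 0.21 and 75.7% of calls were higher, against 58.1% with TMM and 47.9% after quantile normalization. By adjusted p alone, 4999 genes were lower. The log2 ratio between ages of the 10 genes to homeostatic genes (0.10; 0.05 to 0.11 with a library left out) was -1.02 over pan-myeloid genes and 0.93 without Apoe and Cd9. The median r of pairs was 0.14, and 0.22 without 24m replicate 1. Ranks per canonical length held for 6 of 10 genes at 6m. Replicate numbers did not pair the libraries (r of deviations 0.27, 0.14, 0.08 and -0.35), and with the replicate block 5 of the 10 genes and 4112 and 3130 of all genes were called higher and lower. Depth limits Clec7a, with 2 to 13 reads per young library.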
